A study of Arabidopsis thaliana with 4 samples.

Results

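The cellulose synthase family of *Arabidopsis thaliana* was described in whole 9-day-old seedlings of the Col-0 ecotype, in 2 libraries labelled trm4b-4 and 2 of wild type. Its members were taken by locus as a named gene family and are the 10 genes *CESA1* to *CESA10* among 33664 measured features. The trm4b-4 label, spelled tm4b-4 in the genotype field, refers to *TRM4B*, which encodes an RNA 5-methylcytosine methyltransferase. The labels give neither the nature of the allele nor any treatment of either group. Plants were raised on MS plates in long days (16 h light, 8 h dark) at 23 °C, and polyadenylated RNA from whole plants was made into directional libraries and sequenced. Levels are given as FPKM, the number of fragments scaled to gene length and to the library total, as deposited by the authors, whose file headers do not separate fragments from single reads.

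Cellulose is made at the plasma membrane by rosette-shaped complexes of CESA proteins, which move along cortical microtubules and spin glucan chains from UDP-glucose. In Arabidopsis, complexes of the primary wall, laid down while cells grow, need CESA1, CESA3 and a CESA6-type subunit, a place that CESA2, CESA5, CESA6 and CESA9 can share. CESA10 is the closest relative of CESA1. Complexes of the secondary wall, laid down in xylem vessels and fibres after growth, need CESA4, CESA7 and CESA8 together, and loss of any of them gives collapsed xylem.

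The members are close enough in sequence for their reads to be a concern, and stretches around a conserved catalytic motif are shown for that reason. Capitals mark the codons of the QVLRW motif, which binds the growing glucan chain. The sequences were read 5′ to 3′ on the coding strand from the TAIR10.1 genome of RefSeq, and among those shown *CESA1* and *CESA10*, then *CESA5* and *CESA6*, are the closest pairs.
*CESA1*: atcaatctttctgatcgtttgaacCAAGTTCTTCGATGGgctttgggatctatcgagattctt
*CESA10*: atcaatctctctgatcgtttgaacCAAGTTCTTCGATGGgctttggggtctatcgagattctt
*CESA3*: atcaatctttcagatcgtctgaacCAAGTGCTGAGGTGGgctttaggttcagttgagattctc
*CESA5*: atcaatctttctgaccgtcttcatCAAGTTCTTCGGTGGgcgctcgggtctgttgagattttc
*CESA6*: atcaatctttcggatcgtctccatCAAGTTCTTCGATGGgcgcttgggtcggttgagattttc
*CESA7*: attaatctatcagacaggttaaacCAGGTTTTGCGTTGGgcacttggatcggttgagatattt

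These windows lie at chr4:15641847-15641909 (minus strand) for *CESA1*, chr2:10867901-10867963 (minus) for *CESA10*, chr5:1531309-1531371 (minus) for *CESA3*, chr5:3077025-3077087 (plus) for *CESA5*, chr5:25885361-25885423 (plus) for *CESA6* and chr5:5737692-5737754 (minus) for *CESA7*, each within a single coding exon. Over the 63 bases, *CESA1* differed from *CESA10* at 2, *CESA2* from *CESA9* (not shown) at 3, *CESA5* from *CESA6* at 6, *CESA1* from *CESA3* at 12 and *CESA3* from *CESA7* at 20. Over the whole aligned coding sequence the closest pairs were *CESA5* and *CESA6* (86.0% of bases identical), *CESA2* and *CESA9* (84.7%) and *CESA1* and *CESA10* (84.1%). The secondary-wall members *CESA4*, *CESA7* and *CESA8* were as far from each other (69.7% to 70.7%) as from the primary-wall members (68.0% to 71.4%). Runs of identical bases were short. Of all stretches of 50 bases in the annotated transcripts, 1 was shared between members, by *CESA5* and *CESA6*, and no stretch of 100 bases was shared. For stretches of 25 bases the shared part was at most 2.92%, in *CESA5*, and 0 in *CESA7* and *CESA8*. Read length is not stated, nor is how reads that match several genes were counted.

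**Figure D1:**
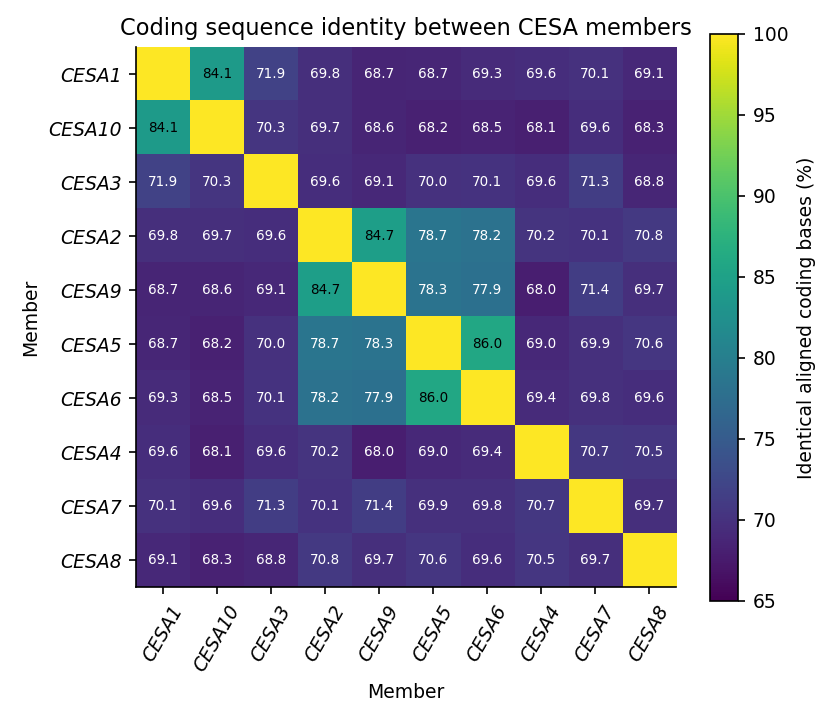
Percent of aligned coding bases that are identical for each pair of CESA members, as a grid with members on both axes and a colour scale from 65% to 100%. The block of *CESA2*, *CESA9*, *CESA5* and *CESA6* stands between 77.9% and 86.0%, *CESA1* pairs with *CESA10* at 84.1%, and *CESA4*, *CESA7* and *CESA8* form no block.

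Library totals lay between 21931590 and 26390263 counted fragments. Libraries of a genotype differed by more than sampling alone (mean chi-square per gene 1.56 between the trm4b-4 libraries and 1.70 between the wild-type libraries), and far less than libraries of different genotypes (26.7 to 28.5). Nothing in the labels says that libraries of a genotype were grown separately, so each p-value below reflects library-to-library spread that may be technical. *TRM4B* itself (AT2G22400) was at 86.3 and 87.1 FPKM in those labelled trm4b-4, against 29.7 and 28.9 FPKM in wild type. It was higher where a loss would be looked for, so directions below refer to the label. Markers of leaf, root and xylem were present. The summed leaf markers *RBCS1A* and *LHCB1.2* were higher in the libraries labelled trm4b-4 (12869 and 12956 FPKM) than in wild type (10310 and 10395 FPKM). Most of that difference lay in *LHCB1.2*, at 5062 and 5099 FPKM (labelled trm4b-4) against 2969 and 2951 FPKM (wild type). *RBCS1A* was 5.95% higher, and lost its call with no filter (limma adjusted p = 0.0559) or no trend (0.215). With quantile normalization *RBCS1A* showed no change (log2 change -1.8e-15) and was not called. The root marker *PYK10* was lower in the libraries labelled trm4b-4 (1386 and 1380 FPKM, against 1680 and 1662 FPKM). Other root markers did not pass: the root hair markers *EXPA7* and *COBL9* summed to 9.98 and 11.1 FPKM in those labelled trm4b-4, against 9.15 and 9.83 FPKM in wild type. The endodermis marker *CASP1* was at 22.4 and 23.8 FPKM (labelled trm4b-4) against 25.5 and 25.6 FPKM (wild type) (limma adjusted p = 0.0519). The summed level of the xylem markers *XCP1*, *XCP2* and *VND7* was 62.8 and 63.9 FPKM in those labelled trm4b-4 and 64.9 and 68.4 FPKM in wild type, and 0 of the 3 passed the test. The seed markers *CRA1* and *OLEO2* summed to 5.35 and 5.88 FPKM in those labelled trm4b-4, against 0.722 and 0.532 FPKM in wild type. Of the floral markers, *SEP3* fell (limma adjusted p = 0.000579), *PI* did not pass (0.615) and *AG* was at most 0.0551 FPKM in any library. *LHCB1.2* may share reads with near-identical copies. The part of these shifts in the CESA values was not tested, and in whole seedlings fewer cells of a type and less RNA per cell cannot be told apart.

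All members but *CESA10* were read from over 100 fragments in every library, and their order was the same in all libraries except that *CESA4* and *CESA7* changed places in one. *CESA1* (AT4G32410, chromosome 4, 15640490 to 15646844, minus strand, 14 exons, TAIR10.1) was at 139 and 141 FPKM (labelled trm4b-4) against 147 and 152 FPKM (wild type). *CESA3* (AT5G05170, chromosome 5, 1530132 to 1535558, minus strand, 15 exons), the other subunit that primary-wall complexes cannot do without, was at 134 and 135 FPKM (labelled trm4b-4) against 145 and 148 FPKM (wild type). The ranges of these 2 genes over all libraries overlapped, but within each of the 4 libraries *CESA1* was the higher, by 1.02 to 1.04 times.

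The CESA6-type genes followed. *CESA6* (AT5G64740, chromosome 5, 25881033 to 25886728) was at 88.3 and 86.8 FPKM (labelled trm4b-4) against 90.9 and 87.5 FPKM (wild type). *CESA2* (AT4G39350, chromosome 4, 18296388 to 18302192) was at 51.7 and 51.4 FPKM (labelled trm4b-4) against 54.1 and 54.1 FPKM (wild type). *CESA5* (AT5G09870, chromosome 5, 3072870 to 3078416), which is also known from seed coat mucilage, was at 47.8 and 48.7 FPKM (labelled trm4b-4) against 48.7 and 47.9 FPKM (wild type). The ranges of *CESA2* and *CESA5* did not overlap, with *CESA2* the higher by 1.06 to 1.13 times within a library. *CESA9* (AT2G21770, chromosome 2, 9284391 to 9289744), best known from developing seed coats, was far lower, at 1.70 and 1.38 FPKM (123 and 105 fragments) in those labelled trm4b-4 and 1.48 and 1.72 FPKM (129 and 135 fragments) in wild type.

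The secondary-wall genes formed a tight low group. *CESA4* (AT5G44030, chromosome 5, 17714390 to 17719723) was at 8.51 and 7.93 FPKM (labelled trm4b-4) against 7.47 and 8.35 FPKM (wild type). *CESA7* (AT5G17420, chromosome 5, 5736630 to 5741500) was at 7.49 and 8.15 FPKM (labelled trm4b-4) against 7.34 and 8.03 FPKM (wild type). *CESA8* (AT4G18780, chromosome 4, 10312624 to 10316886) was at 4.92 and 5.23 FPKM (labelled trm4b-4) against 4.81 and 4.95 FPKM (wild type). *CESA4* and *CESA7* did not differ beyond their spread, with a ratio of 0.974 to 1.14 within a library, and changed places in trm4b-4 replicate 2. *CESA8* was lower than both, at 0.617 to 0.658 of *CESA7*.

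*CESA10* (AT2G25540, chromosome 2, 10866822 to 10872243) was at the edge of detection. It had 2 and 4 fragments in the libraries labelled trm4b-4 and 1 and 3 in wild type, a ratio of 1.67 with an exact 95% interval of 0.397 to 8.06 that covers counting error only. At this depth no difference could be shown for it, and it stayed under the level for testing. The family as a whole summed to 485 ± 2.58 FPKM in the libraries labelled trm4b-4 and 510 ± 4.38 FPKM in wild type (SD, n = 2 each). *CESA1* and *CESA3* each made up between 27.7% and 29.6% of that sum in every library.

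**Figure D2:**
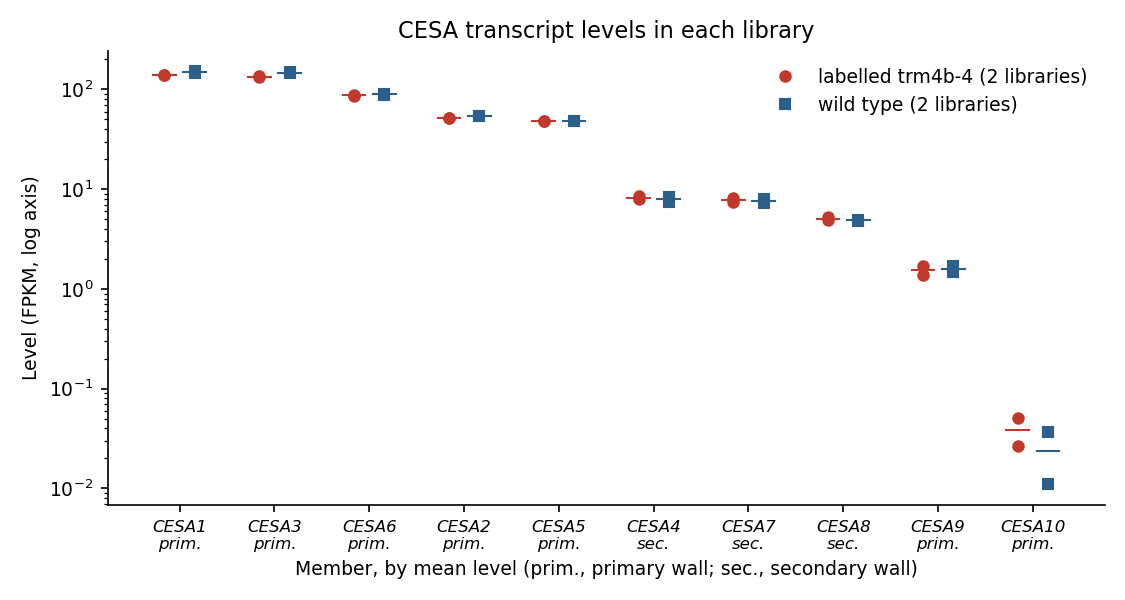
Level of each CESA gene in FPKM on a log axis, with genes ordered by mean level and marked as primary or secondary wall (red circles, the 2 libraries labelled trm4b-4; blue squares, the 2 wild-type libraries; short lines, means). Genotypes differ little beside the distance between genes, from about 145 FPKM for *CESA1* to 0.0311 FPKM for *CESA10*.

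The comparison of the libraries labelled trm4b-4 with wild type left most of the family without a detectable change. Of the 9 members that could be tested, *CESA1* and *CESA3* fell and none rose, and both falls were under 10%. A limma fit was used on log2(FPKM + 1) for the 19027 genes that reached 1 FPKM in 2 or more libraries, with a Benjamini-Hochberg adjusted p under 0.05 as the threshold. By that rule 34.3% of all tested genes passed, 19.2% as higher and 15.1% as lower. The 2 members called, 22.2% of those tested, lie between the share of falls and the share called in either direction. A count of 2 among 9 is too small to set the family apart from these shares. The median log2 change was -0.027 over the tested members and 0.031 over all tested genes.

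*CESA3* averaged 134 ± 1.29 FPKM in the libraries labelled trm4b-4 and 147 ± 2.57 FPKM in wild type (SD, n = 2 each), 8.23% lower (log2 change -0.12, SE 0.026, 95% interval -0.18 to -0.063, limma adjusted p = 0.00748). *CESA1* averaged 140 ± 1.84 FPKM in the libraries labelled trm4b-4 and 149 ± 3.35 FPKM in wild type, 6.35% lower (log2 change -0.094, SE 0.027, 95% interval -0.16 to -0.031, limma adjusted p = 0.0291). Both trm4b-4 values lay below both wild-type values for each gene. These were small changes: 95.1% of all genes called in this comparison changed by more than *CESA3* did, and the median size of a called change was 0.31 on the log2 scale. Neither call held under every setting. *CESA3* ended at an adjusted p of 0.0539 when wild type replicate 2 was dropped and 0.111 with no trend. *CESA1* ended at 0.167 when that library was dropped, 0.117 when trm4b-4 replicate 1 was dropped, 0.197 with no trend, 0.0559 with no filter and 0.0561 with quantile normalization.

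*CESA2* gave 51.6 ± 0.214 FPKM in the libraries labelled trm4b-4 and 54.1 ± 0.00899 FPKM in wild type, with no overlap, but did not pass (log2 change -0.067, 95% interval -0.14 to 0.0066, limma adjusted p = 0.145). Rescaling by median of ratios brought it past the threshold (-0.099, adjusted p = 0.047), and so did voom run on fragments recovered from the FPKM (-0.069, adjusted p = 0.0365). In all, the groups did not overlap for 3 members, all lower in the libraries labelled trm4b-4, and 0 members were higher without overlap. Of all tested genes 68.4% did not overlap, 39.4% as higher and 29.0% as lower. *CESA6* (log2 change -0.027, 95% interval -0.098 to 0.045, limma adjusted p = 0.544) and *CESA5* (-0.0019, interval -0.080 to 0.077, adjusted p = 0.976) overlapped between genotypes. The interval of *CESA6* includes a fall of the size of that of *CESA1*, and the interval of *CESA5* does not. *CESA9* had the widest interval of the tested members (-0.32 to 0.25, log2 change -0.036, limma adjusted p = 0.854).

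The secondary-wall members gave no call. Their log2 changes were 0.050 for *CESA4* (95% interval -0.14 to 0.24, limma adjusted p = 0.67), 0.022 for *CESA7* (-0.16 to 0.21, adjusted p = 0.856) and 0.046 for *CESA8* (-0.15 to 0.24, adjusted p = 0.71). All 3 genes overlapped between genotypes. With 351 to 671 fragments per library, they were measured less sharply than *CESA1*, which had 11895 to 15183, so rises or falls of the size seen for *CESA3* lie within these intervals.

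**Figure D3:**
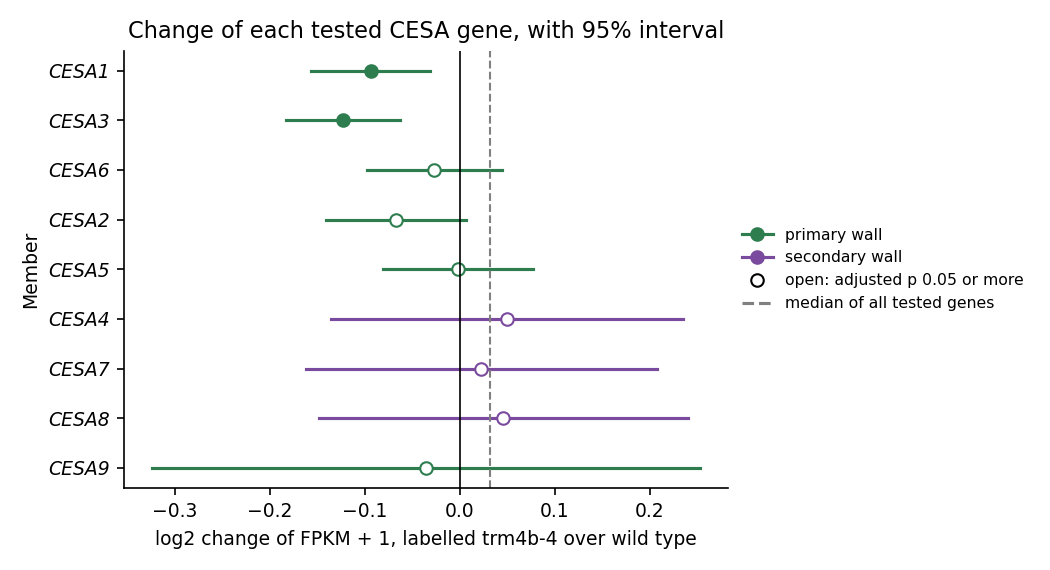
Change of each tested member as log2 of FPKM + 1, labelled trm4b-4 over wild type, with its 95% interval from limma, where green marks primary-wall and purple secondary-wall genes, filled points have an adjusted p under 0.05, and the dashed line is the median of all tested genes (0.031). The intervals of *CESA1* and *CESA3* lie below 0, and those of the other 7 members include it.

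Proportions within a library do not depend on how libraries were scaled against each other. The ratio of *CESA1* to *CESA3* was 1.04 and 1.04 in the libraries labelled trm4b-4, against 1.02 and 1.02 in wild type. The summed CESA6-type genes *CESA2*, *CESA5*, *CESA6* and *CESA9* stood to *CESA3* as 1.42 and 1.39 in the libraries labelled trm4b-4, against 1.35 and 1.29 in wild type. To *CESA1* they stood as 1.37 and 1.33 in the libraries labelled trm4b-4, against 1.33 and 1.26 in wild type. In each case both values of the libraries labelled trm4b-4 were the higher, but 2 libraries against 2 cannot give an exact two-sided permutation p below 0.333, which is the value all 3 gave. The ratio of *CESA5* to *CESA3* was 0.358 and 0.36 in the libraries labelled trm4b-4 and 0.337 and 0.323 in wild type (log2 difference 0.12). That ratio was picked after its values were seen. The ratio of *CESA6* to *CESA1* overlapped between groups (exact two-sided permutation p = 0.667). It was 0.637 and 0.615 in the libraries labelled trm4b-4, against 0.618 and 0.577 in wild type. The ratios of *CESA4* and of *CESA8* to *CESA7* overlapped as well. Only the secondary-wall to primary-wall ratio was planned, and 68.4% of all tested genes also separated the groups.

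The ratio of secondary-wall to primary-wall CESA transcripts was 0.0453 and 0.0458 in the libraries labelled trm4b-4, against 0.0403 and 0.0434 in wild type. The difference was 0.12 on the log2 scale (exact two-sided permutation p = 0.333, the smallest possible). The secondary-wall sum was 21.1 ± 0.277 FPKM in the libraries labelled trm4b-4 and 20.5 ± 1.21 FPKM in wild type, a difference smaller than the spread between wild-type libraries. The primary-wall sum was 463 ± 2.30 FPKM in the libraries labelled trm4b-4 and 489 ± 3.16 FPKM in wild type (SD, n = 2 each). The difference in the ratio was 0.070 without wild type replicate 1 and 0.18 without wild type replicate 2.

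**Figure D4:**
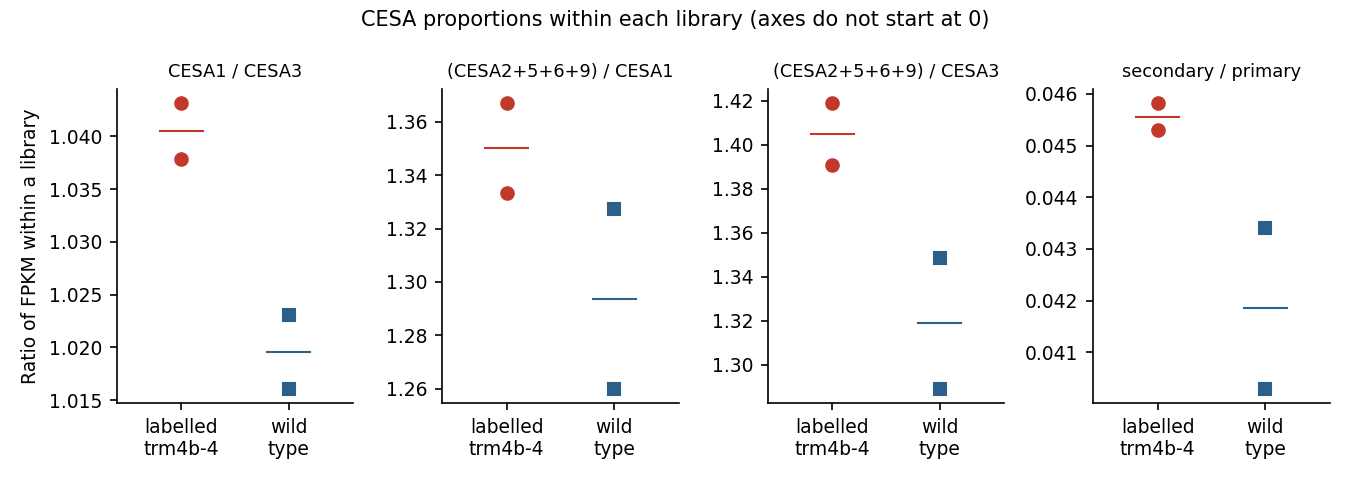
Ratios of FPKM within each library, 1 panel per ratio, with the 2 libraries labelled trm4b-4 (red circles) left of the 2 wild-type libraries (blue squares), short lines for means and vertical axes that do not start at 0. In every panel both red points lie above both blue points, and the separation is small beside the ratio itself, as with *CESA1* to *CESA3* at 1.04 against 1.02. Ratios that overlapped between groups, such as *CESA6* to *CESA1*, are not drawn.

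The partners of the complex were read from the same fit, over a list of 16 loci. Of 12 tested, 2 fell and none rose (16.7% called, median log2 change -0.049). Of all tested genes 34.3% were called, 15.1% as lower, so the count of falls was near the background. *KOR1*, a membrane-bound endoglucanase needed for cellulose synthesis, averaged 181 ± 2.29 FPKM in the libraries labelled trm4b-4 and 200.1 ± 0.172 FPKM in wild type (log2 change -0.14, limma adjusted p = 0.00193). *CTL1*, a chitinase-like protein of the primary wall, was at 426 and 434 FPKM (labelled trm4b-4) against 452 and 461 FPKM (wild type) (-0.087, adjusted p = 0.0129), and lost its call without trm4b-4 replicate 1 (0.0667) or wild type replicate 2 (0.0745). With no trend in the fit neither passed (adjusted p = 0.0755 for *KOR1* and 0.209 for *CTL1*). *CSI1*, which ties the complex to microtubules, and *COB*, a GPI-anchored protein that orients cellulose, were at -0.051 and -0.047 and did not pass (adjusted p = 0.349 and 0.303; both chosen after their values were seen).

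Genes of the secondary wall other than the CESA genes were read in the same way. Of 29 members 24 were tested, 2 rose and 1 fell (12.5% called, beside 34.3% of all tested genes, 19.2% higher and 15.1% lower), and their median log2 change was -0.0013. *MYB46*, a transcription factor that switches on secondary-wall genes, was at 2.46 and 2.15 FPKM (labelled trm4b-4) against 1.57 and 1.51 FPKM (wild type) (log2 change 0.38, limma adjusted p = 0.0336). *ESK1*, which acetylates xylan, averaged 6.83 ± 0.464 FPKM in the libraries labelled trm4b-4 and 5.47 ± 0.0541 FPKM in wild type (0.27, adjusted p = 0.0344). Leaving out any of the 4 libraries ended the call of *MYB46* (adjusted p from 0.055 to 0.168). *ESK1* lost its call without trm4b-4 replicate 1 (0.167), wild type replicate 1 (0.115) or wild type replicate 2 (0.0993). *ACL5*, a thermospermine synthase that holds back vessel maturation, fell to 20.2 and 18.3 FPKM in those labelled trm4b-4, against 24.5 and 22.6 FPKM in wild type (-0.28, adjusted p = 0.0102; 0.0659 without wild type replicate 1). The vessel protease gene *XCP2*, with *ACL5* the most abundant of the list, was at -0.073 (adjusted p = 0.212).

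Single relatives of the CESA genes changed by more than any CESA gene. Some of the cellulose synthase-like genes encode glycan synthases of other wall polymers. Of 30 members 20 were tested, 4 rose and 5 fell (45.0% called, beside 34.3% of all tested genes, 19.2% higher and 15.1% lower), with a median of 0.013. *CSLC4*, which makes the glucan backbone of xyloglucan, was at 19.8 and 20.3 FPKM (labelled trm4b-4) against 49.9 and 50.6 FPKM (wild type) (log2 change -1.29, limma adjusted p = 1.74e-07). *CSLC5*, of the same clade, moved the other way, with 20.0 and 20.2 FPKM in those labelled trm4b-4 and 15.5 and 16.9 FPKM in wild type (0.30, adjusted p = 0.00458). *CSLC4* and *CSLC5* overlapped in the libraries labelled trm4b-4, while in wild type *CSLC4* was the higher.

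Among the CSLA genes, whose clade makes glucomannan backbones, *CSLA9* rose (0.19, limma adjusted p = 0.00692) and *CSLA3* fell to 13.2 and 12.8 FPKM in those labelled trm4b-4, against 19.3 and 20.6 FPKM in wild type (-0.59, adjusted p = 0.000132). *CSLA14* (-0.58) and *CSLA10* (-0.43) fell and *CSLA15* rose (0.59), all below 5 FPKM and named after their values were seen. *CSLA10* lost its call without trm4b-4 replicate 2 (adjusted p = 0.0734) or wild type replicate 1 (0.123), and *CSLA15* without wild type replicate 1 (0.0505). *CSLE1*, the most abundant of the list, was at 66.8 and 65.3 FPKM (labelled trm4b-4) against 79.8 and 78.3 FPKM (wild type) (-0.26, adjusted p = 0.000417). *CSLG3* was at 7.19 and 7.28 FPKM (labelled trm4b-4) against 3.27 and 3.16 FPKM (wild type) (0.97, adjusted p = 6.56e-05). The CSLD genes, the closest relatives of the CESA genes in sequence, did not pass in any of the 3 tested (*CSLD2* 0.0083, *CSLD3* 0.013 and *CSLD5* 0.049), genes chosen after their values were seen.

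Part of the genes for the substrate was called, each as higher. Of 6 tested genes for UDP-glucose supply (8 in the list) 3 rose and none fell (beside calls for 34.3% of all genes), with a median log2 change of 0.16. *UGP1* and *UGP2*, the UDP-glucose pyrophosphorylase genes, rose by 0.24 and 0.18 on the log2 scale (limma adjusted p = 0.00124 and 0.0116). *UGP1* was at 79.2 and 78.1 FPKM (labelled trm4b-4) against 64.7 and 68.4 FPKM (wild type). The sucrose synthase gene *SUS3* rose by 0.41 at a low level (adjusted p = 0.0222). *UGP2* lost its call without trm4b-4 replicate 2 (0.0594) or wild type replicate 2 (0.0615), and *SUS3* without the same libraries (0.116 and 0.114).

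Of 6 receptor kinase genes linked to the sensing of wall integrity, 2 fell and none rose, with a median log2 change of -0.023. Their 33.3% called is close to the 34.3% of all tested genes, so the count is no result about the list. *THE1*, first known from a screen in a cellulose-deficient CESA6 mutant, was at 16.3 and 15.6 FPKM (labelled trm4b-4) against 35.8 and 36.9 FPKM (wild type) (log2 change -1.14, limma adjusted p = 9.56e-07). *FER*, a relative of *THE1*, was at 70.4 and 71.6 FPKM (labelled trm4b-4) against 90.9 and 88.4 FPKM (wild type) (-0.33, adjusted p = 9.37e-05). *FEI1*, whose loss together with *FEI2* reduces cellulose in roots, was at -0.032 and did not pass (adjusted p = 0.464). *HERK1* was at 0.18, higher without overlap, and did not pass (limma adjusted p = 0.0518, chosen after its values were seen). With a filter at 5 FPKM, the replicate block or voom, 1 of the 6 was called higher.

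**Figure D5:**
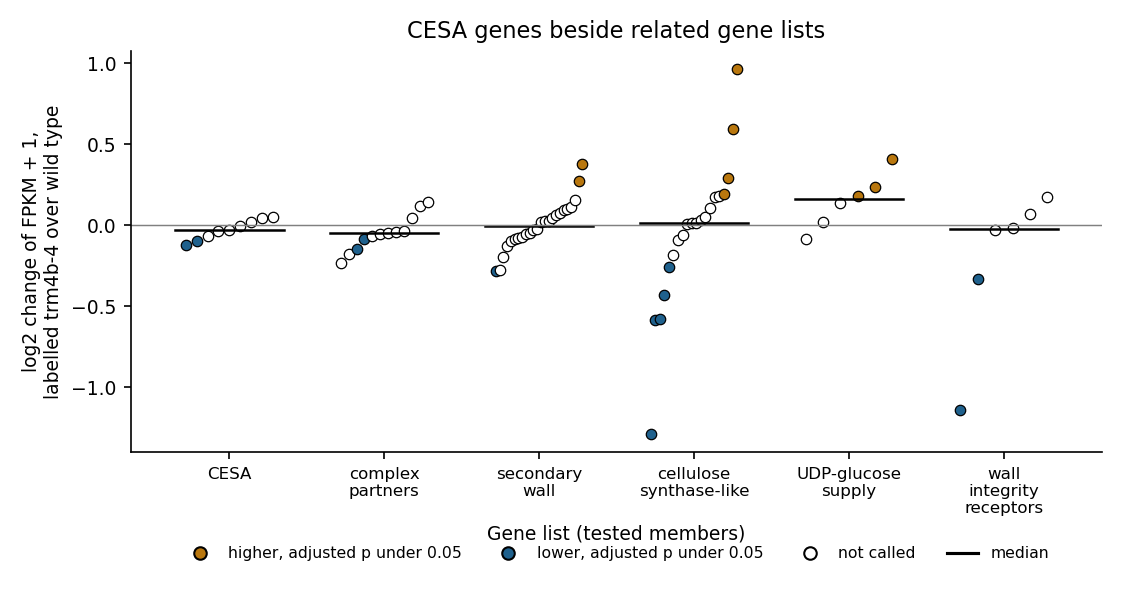
log2 change of FPKM + 1, labelled trm4b-4 over wild type, for the tested members of the CESA family and of 5 related gene lists, 1 point per gene and a line at each median (orange, passed as higher; blue, passed as lower; white, did not pass). The CESA points lie between -0.12 and 0.050, while cellulose synthase-like genes run from -1.29 to 0.97.

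Likeness of pattern was measured as the root mean square distance of log2(FPKM + 1), centred per gene, over the 4 libraries. For *CESA1*, the most abundant primary-wall member, the nearest tested genes were *UBQ7* (0.0024), AT2G01600 (0.0039) and AT5G19740 (0.0039). *CESA3* was the nearest member (0.015), with 110 genes nearer, and 248 genes lay within 0.02. *CESA4* was taken as the secondary-wall member with the highest mean (8.07 FPKM, beside 7.75 FPKM for *CESA7*). Its nearest genes were AT1G31710 (0.0034), AT1G05205 (0.0073) and AT5G60460 (0.0086), and 58 genes lay within 0.02. Among members *CESA9* was nearest to *CESA4* (0.054, with 1432 genes nearer), before the complex partners *CESA8* (0.069, 3270 nearer) and *CESA7* (0.072, 3716 nearer). *CESA9* had only 105 to 135 fragments per library, and log2(FPKM + 1) understates changes of low genes. No meaning is read into that order. With 4 libraries such nearness is a description of these samples only.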

How the data were processed

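The deposited values were FPKM, 1 file per library, made by the authors. Per the submitters' processing notes, the tools were TopHat2 2.0.12, HTSeq 0.6.1, Cufflinks 2.1.1 and Cuffdiff, and the build TAIR10. Their roles, whether counting used strand and how multiply matching reads were handled are not given here, although the kit was directional per the labels. The unit was read from the values, since 99.97% of features above 0 gave whole fragments (within 0.0003 plus a relative 3e-09) for a whole gene length and library total. The headers name no unit and whole numbers would fit RPKM as well, so "fragments" may be reads. For all 10 members a single length, 3251 to 4105 bases, fitted below the longest annotated transcript.

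limma 3.58.1 in R 4.3.3 was fitted with a mean-variance trend on log2(FPKM + 1), which understates changes of low genes, over the 4 libraries without a covariate, for genes reaching 1 FPKM in 2 or more libraries, with two-sided p-values adjusted by Benjamini-Hochberg over 19027 genes. Ratios were compared by exact permutation. Alternatives were another pseudocount (0.1), no filter or one at 5 FPKM, quantile normalization, median-of-ratios rescaling, no trend, voom on recovered fragments, the replicate number as a block, and each library left out. Libraries of the same replicate number showed no shared deviation from their group means (correlation of deviations -0.043). The labels name no pairing, and this value cannot show that such libraries were prepared separately. Sequences and positions are those of TAIR10.1, read with Biopython 1.88. Of 89 loci in the related lists, 8 have no name there and are counted without being named.

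The members and lists were chosen with earlier results of these data known. Named genes were all members, *TRM4B*, and from each list up to 3 called genes per direction with the smallest adjusted p and the 2 most abundant. *CSI1*, *COB*, the CSLD genes, *CSLA10*, *CSLA14*, *CSLA15* and *HERK1* were added after their values were seen.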

Additional observations from a re-analysis of the deposited data

How the results depend on the processing

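Between 0 and 2 CESA members were called when 1 library was left out, against 2 with all libraries, and the log2 difference in the secondary to primary ratio ran from 0.070 to 0.18. With no filter or with quantile normalization 1 member was called (*CESA3*; *CESA1* had adjusted p of 0.0559 and 0.0561), and with median-of-ratios rescaling or voom 3. limma without the mean-variance trend called 0, as it did without wild type replicate 2, and in each 1 member had an unadjusted p under 0.05. Under median-of-ratios rescaling and voom *CESA2* was the member added. The falls of *CESA1* and *CESA3* kept their direction under all 12 alternatives. Uncalled members changed sign: with quantile normalization *CESA5* was at 0.026 and *CESA6* at 0.034, and with median-of-ratios rescaling *CESA7* was at -0.0060. Without single libraries the ranges were -0.022 to 0.12 for *CESA4*, -0.015 to 0.011 for *CESA5*, -0.054 to 0.00045 for *CESA6*, -0.035 to 0.080 for *CESA7* and -0.13 to 0.055 for *CESA9*. The cause was not tested. Among list genes, *ACL5* (adjusted p = 0.055), *SUS3* (0.0625) and *UGP2* (0.0501) were not called by limma without the trend, *ESK1* (0.0755) and *SUS3* (0.0757) without a filter, *MYB46* (0.0567) and *ESK1* (0.0516) with quantile normalization, and *ESK1* (0.0523) after median-of-ratios rescaling. With the replicate number as a block, 2 members and 6769 genes were called, against 6530 without it, and the ratio differed by 0.17 within number 1 and 0.078 within number 2. Where 1 library was left out, the lone library was assumed to vary like the other genotype. Intervals on fragments cover counting error only, and depth limits *CESA9* and *CESA10* most.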
